A study of Mus musculus with 10 samples.

Results

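The genes described here are 42 genes of fatty acid synthesis, storage and oxidation, chosen by name and followed in tumour epithelial cells of mouse pancreatic cancer. They were 42 of 51707 genes listed in the series, and all 42 passed the filter on low counts that left 17495 genes to test. Each library was made from epithelial cells sorted by flow cytometry from a pancreatic ductal adenocarcinoma (PDAC). All tumours were grown from T6-LOH organoids of the KPC mouse model of pancreatic cancer, placed in the mouse pancreas with added pancreatic stellate cells (PSCs), precursors of many tumour fibroblasts. In 5 libraries the PSCs were the control line PSC4 ROSA (egfr), called Egfr WT PSC here, and in 5 they were PSC4 EGFR KO B4, which carries an Egfr knockout (Egfr KO PSC). The organoids had the same label in both groups, which differed in the co-transplanted PSCs. The knockout is represented by clone B4 alone, the strain label is C57BL/6J while the series title names NSG mice, which lack lymphocytes but keep myeloid cells, and neither the age of the mice nor the sorting markers were stated in the labels. Whether the 5 libraries of a group are 5 mice is also unstated, and the p-values then reflect the spread of libraries, which may be technical.

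Fatty acids are built in the cytosol from acetyl-CoA, which Acly makes from citrate, and which acetyl-CoA carboxylase and Fasn turn into palmitate. Desaturases and elongases reshape the chain, acyl-CoA synthetases activate it, and the fatty acid then enters membrane lipid, is stored as triglyceride in droplets or is carried into mitochondria by the carnitine shuttle for β-oxidation. Pancreatic cancers are known to make fatty acids themselves and also to take up lipid from their surroundings, stellate cells included.

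The libraries held between 39533698 and 53815744 estimated counts in genes, and the 42 genes together took 0.402% ± 0.0272 of them (SD, n = 5) with Egfr WT PSC and 0.420% ± 0.0197 (SD, n = 5) with Egfr KO PSC. Keratins marked the cells as epithelial: Krt18 lay between 3014 and 5698 and Krt19 between 3255 and 6226 CPM (counts scaled to a common library total by the TMM method) over the 10 libraries. RNA of other cell types was also present. The 11 macrophage markers summed to 271–465 CPM with Egfr WT PSC and 222–329 CPM with Egfr KO PSC. Of the 11, 8 had a lower mean with Egfr KO PSC, 7 of them at an unadjusted p under 0.05, beside 4.60% of all genes tested. Most of the sum was Cd14, at a mean of 290 CPM with Egfr WT PSC and 199 CPM with Egfr KO PSC. Mrc1 came next and was higher with Egfr KO PSC, at means of 27.2 and 39.4 CPM. The 10 fibroblast markers summed to 361–918 and 339–1240 CPM, mostly Col3a1 and Col1a1, and 3 of 10 were lower at the same level. The 10 endothelial markers, led by Pecam1 and Esam, summed to 30.0–48.5 CPM with Egfr WT PSC and 13.3–66.3 CPM with Egfr KO PSC. The 9 acinar markers, led by Ctrb1 and Prss2, summed to 137–405 and 91.2–376 CPM. Of the 10 adipocyte markers, 8 stayed under 1 CPM in every library, among them Adipoq, Plin1 and Lep, and only Cidea and Cidec were above it. Of 9 Schwann cell markers, Cdh19 was at 0 in every library, and Mbp was the most abundant. Of the 5 mesothelial markers Msln, which pancreatic tumour cells are known to express, gave nearly all counts, and Upk3b came next. In such sorted bulk samples, fewer cells of a type and less RNA per cell cannot be told apart.

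With Egfr KO PSC, 13 of the 42 genes were higher and 29 lower, with a median log2 fold change (knockout over control) of −0.07, beside 8762 higher, 8733 lower and a median of 0.00041 over all genes tested. None of the 42 passed the edgeR quasi-likelihood test at an adjusted p under 0.05, and neither did any other gene (0% of 17495). At an unadjusted p under 0.05 there were 7. Acly, Scd2, Acsl4 and Lpin2 were higher, 4 of 42 beside 3.55% of all genes. Fads1, Fads2 and Fabp7 were lower, 3 of 42 beside 4.60% of all genes. The groups did not overlap for Acsl4, which was higher in every Egfr KO PSC library (0.777% of all genes were apart in this direction), and for Fabp7, which was lower in every one (0.743% of all genes). DESeq2 called 1 of the 42, Fabp7, beside 0.487% of all genes called lower by that tool, and limma voom and limma on log2(TPM + 1) called none.

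**Figure D1:**
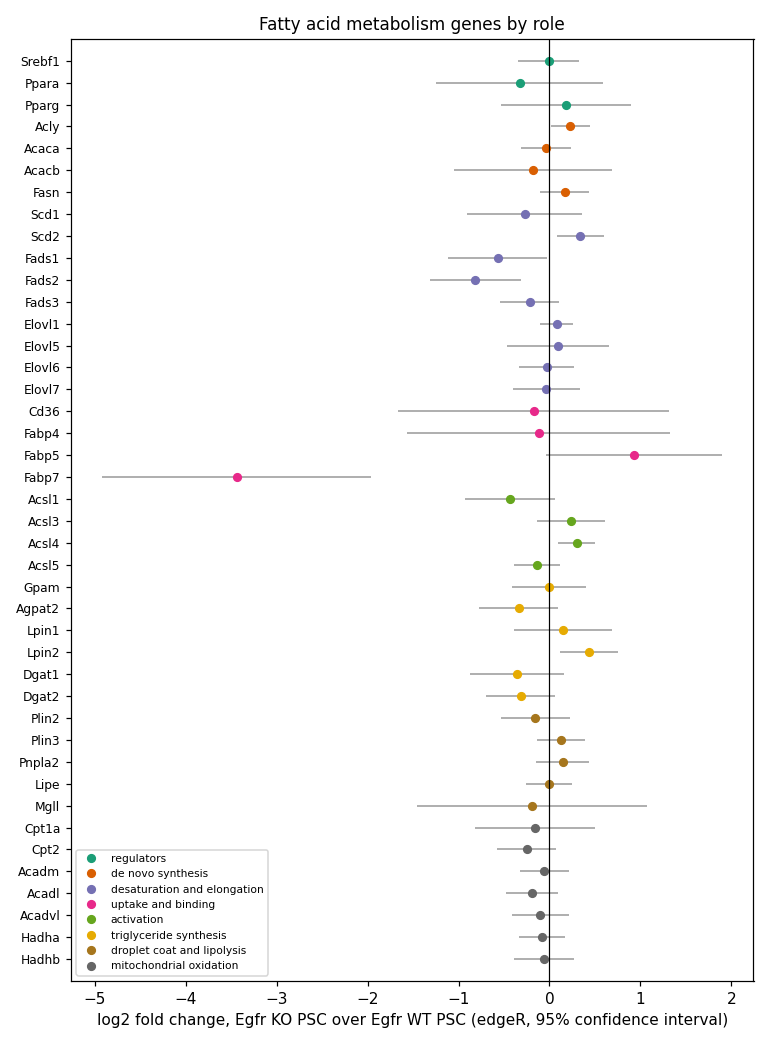
Log2 fold change of each of the 42 genes, knockout over control (x axis), ordered by role (y axis and colour), with bars for the 95% confidence interval of the edgeR fit, n = 5 libraries per group. Fabp7 at −3.44 stands farthest from 0, and all 7 oxidation genes lie between −0.25 and −0.06 with intervals that include 0.

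Upstream sequences are shown for Fabp7, Fads2 and Acsl4, because these had the lowest p of the 42 genes, and for Hadha and Hadhb, because these oxidation genes face away from each other and share their upstream region. They are from RefSeq on GRCm38.p6, run 5′ to 3′ on the strand given, and capitals mark a CCAAT box (CCAAT) or a GC box (GGGCGG) on either strand.
Fabp7, 250 bases before the start, chr10:57784673-57784922, plus strand: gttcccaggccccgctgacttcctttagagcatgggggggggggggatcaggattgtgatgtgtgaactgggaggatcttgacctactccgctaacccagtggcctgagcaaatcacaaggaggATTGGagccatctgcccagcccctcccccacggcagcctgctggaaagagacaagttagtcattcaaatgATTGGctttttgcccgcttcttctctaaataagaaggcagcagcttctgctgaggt
Fads2, 250 bases before the start, chr19:10101504-10101753, minus strand: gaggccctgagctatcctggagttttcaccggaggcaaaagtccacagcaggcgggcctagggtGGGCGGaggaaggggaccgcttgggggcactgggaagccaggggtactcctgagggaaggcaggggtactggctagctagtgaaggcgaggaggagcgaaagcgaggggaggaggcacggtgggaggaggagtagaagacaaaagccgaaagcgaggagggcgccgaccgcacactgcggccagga
Acsl4, 250 bases before the start, chrX:142390536-142390785, minus strand: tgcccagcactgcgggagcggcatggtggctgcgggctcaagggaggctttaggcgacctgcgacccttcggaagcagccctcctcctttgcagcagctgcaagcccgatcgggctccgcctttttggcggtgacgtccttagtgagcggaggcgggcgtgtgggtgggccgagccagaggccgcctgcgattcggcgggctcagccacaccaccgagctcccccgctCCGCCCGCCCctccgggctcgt
Hadha and Hadhb, the 228 bases that lie before both starts, chr5:30155003-30155230, plus strand (the strand of Hadhb): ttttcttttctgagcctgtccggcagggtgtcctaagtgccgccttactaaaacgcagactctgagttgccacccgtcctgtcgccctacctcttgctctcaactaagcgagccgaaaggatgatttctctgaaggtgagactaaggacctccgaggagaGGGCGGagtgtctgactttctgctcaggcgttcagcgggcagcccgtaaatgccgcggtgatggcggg
The Fabp7 stretch held 2 CCAAT boxes and no GC box, at 54.8% G and C. The Fads2 stretch held 1 GC box, and the Acsl4 stretch held 2 that overlap, at 70.8% G and C. RefSeq windows of 250 bases before to 50 after a start were matched for 35 of the 42 genes, 46 windows in all. A GC box stood in 65.2% of these 46 windows and in 35.7% of all 32851, and a CCAAT box in 43.5% and 37.4%. The E-box CACGTG stood in 10.9% and 7.15%, and TATAAA, the TATA box, in 4.35% and 13.6%. The sterol regulatory element TCACNCCAC, searched like the others on both strands, stood in 2.17% and 1.24%, and Acsl1 was the only one of the 35 genes with it. A match is a run of letters and not a shown binding site.

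The regulators differed little between groups. Srebf1, which encodes the transcription factor SREBP-1 that switches on lipogenic genes, was the most abundant at 63.1 ± 13.4 TPM (a level scaled per transcript length, so that genes can be compared; SD, n = 5) with Egfr WT PSC and 60.8 ± 8.73 TPM (SD, n = 5) with Egfr KO PSC. In CPM it stood at 165, 163, 157, 143 and 98.4 with Egfr WT PSC (replicates 1 to 5 in order, here and below) and at 167, 136, 112, 147 and 159.9 with Egfr KO PSC. The groups overlapped, with a log2 fold change of −0.01 ± 0.15 (SE) and an edgeR adjusted p of 0.994. Ppara, the receptor that drives oxidation genes in liver, was close to absent at 0.413, 0.887, 0.812, 0.663 and 0.208 CPM against 0.838, 0.251, 0.440, 0.476 and 0.374 CPM. Its log2 fold change was −0.33 ± 0.42 (SE) with an edgeR adjusted p of 0.863. Pparg, the receptor known for adipocyte differentiation, ranged from 24.5 to 69.4 CPM and was high in replicates 1 and 2 of Egfr WT PSC and 4 and 5 of Egfr KO PSC.

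Of the enzymes of de novo synthesis, Acly was the most abundant and Fasn next. Acly stood at 413, 358, 392, 439.9 and 365 CPM with Egfr WT PSC and at 468, 474, 404, 443 and 521 CPM with Egfr KO PSC. The lowest Egfr KO PSC library, replicate 3, lay within the Egfr WT PSC range. Acly differed by a log2 fold change of 0.23 ± 0.10 (SE; 95% confidence interval 0.01 to 0.45), with an edgeR adjusted p of 0.594, and the unadjusted p stayed under 0.05 in 8 of 21 alternative fits. Fasn, the synthase itself, was at 258 ± 39.6 CPM (SD, n = 5) and 289 ± 32.1 CPM (SD, n = 5), with a log2 fold change of 0.17 ± 0.12 (SE). The acetyl-CoA carboxylases were scarcer: Acaca, the cytosolic form, lay between 19.5 and 29.1 CPM, and Acacb, the form tied to the mitochondrial surface, between 0.238 and 1.05 CPM. Their log2 fold changes were −0.04 for Acaca and −0.18 for Acacb, with intervals of −0.32 to 0.24 and −1.05 to 0.68.

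In CPM, Fasn and Acly went together from library to library. Their log2 CPM values correlated with a Pearson r of 0.91 over 10 libraries (permutation test, p = 0.00017, adjusted over 5 pairs 0.00085) and a Spearman rho of 0.903 (permutation p = 0.00072, adjusted 0.0036). Centred on the group means r was 0.94. Without the 2 libraries farthest from the median of Fasn it was 0.81 over 8 libraries (permutation p adjusted over 5 pairs 0.058). Dropping them also narrows the range of Fasn, so this cannot show how far the relation rests on those libraries. When 1 library was left out, r lay between 0.88 and 0.93. On log2(TPM + 1) r was 0.32 and rho −0.018 (permutation p = 0.355 and 0.972), so the relation was not seen in TPM. The cause of this difference was not tested. Fasn-205 held 76.4% ± 4.54 of the counts of Fasn with Egfr WT PSC but 60.8% of its TPM, while Fasn-202, a retained intron of 762 bases, held 1.25% of the counts and 11.5% of the TPM. The other 4 pairs showed no such relation: Fasn with Srebf1 gave r = 0.42 and rho = 0.0909 (permutation p = 0.234 and 0.810), Acaca 0.18 and 0.0303 (0.640 and 0.948), Scd1 0.18 and 0.152 (0.606 and 0.681) and Elovl6 −0.11 and −0.236 (0.754 and 0.515). Adjusted over the 5 pairs, the lowest p of these was 0.585 for r.

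Desaturases and elongases split in direction, 3 higher and 6 lower of 9. Scd2, a stearoyl-CoA desaturase that makes monounsaturated fatty acids and is known as the form of brain and of dividing tissue, was the most abundant of all 42 genes at 204 TPM. It stood at 717, 768, 551, 727 and 697 CPM with Egfr WT PSC and at 846, 848, 742, 926 and 1019 CPM with Egfr KO PSC. Only Egfr KO PSC replicate 3 lay within the Egfr WT PSC range. Its log2 fold change was 0.34 ± 0.12 (SE; 95% confidence interval 0.08 to 0.60), with an edgeR adjusted p of 0.495. Scd1, the form of liver and fat, was at 21.4 TPM, and in CPM was lower with Egfr KO PSC, at 75.7 ± 29.1 CPM (SD, n = 5) against 62.6 ± 22.9 CPM (SD, n = 5). The Scd genes share coding sequence, so the split of shared reads between them makes their separate values uncertain.

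Fads2 and Fads1, the Δ6 and Δ5 desaturases that act one after the other in making arachidonic acid and other polyunsaturated fatty acids, were both lower with Egfr KO PSC. Fads2 stood at 144, 78.6, 98.8, 98.3 and 73.5 CPM with Egfr WT PSC and at 76.3, 75.0, 42.3, 43.6 and 43.0 CPM with Egfr KO PSC. Replicates 3, 4 and 5 of Egfr KO PSC lay below every Egfr WT PSC library, and replicates 1 and 2 within their range. For Fads2 the log2 fold change was −0.81 ± 0.23 (SE; 95% confidence interval −1.32 to −0.31), with an edgeR adjusted p of 0.440, and the unadjusted p was under 0.05 in all 21 alternative fits. Fads1 stood at 69.1, 40.2, 41.3, 34.9 and 29.0 CPM and at 30.3, 39.1, 24.8, 17.3 and 32.7 CPM, so that the groups overlapped. Its log2 fold change was −0.57 ± 0.25 (SE), with an edgeR adjusted p of 0.604. Without Egfr WT PSC replicate 1, its highest library, the value was −0.33, and the unadjusted p was under 0.05 in 12 of 21 alternative fits. Fads3, a related desaturase, had a log2 fold change of −0.22.

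The 4 elongases differed by less than their spread, with log2 fold changes from −0.03 to 0.09. Elovl1, which extends very long chains, was the steadiest of the 42 genes, between 74.1 and 91.8 CPM. Elovl5, which extends polyunsaturated chains, lay between 120.1 and 284 CPM, with Egfr WT PSC replicate 1 highest and replicate 2 of Egfr KO PSC next. Elovl6, which extends palmitate, lay between 48.4 and 73.4 CPM. Elovl7 lay between 24.5 and 40.3 CPM, and part of it was Elovl7-202, annotated as a target of nonsense-mediated decay, at 43.1% ± 3.69 of its counts (SD, n = 5) with Egfr WT PSC and 48.6% ± 3.57 (SD, n = 5) with Egfr KO PSC. These shares overlapped, from 38.9% to 48.1% and from 43.6% to 53.3%, and were not tested.

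**Figure D2:**
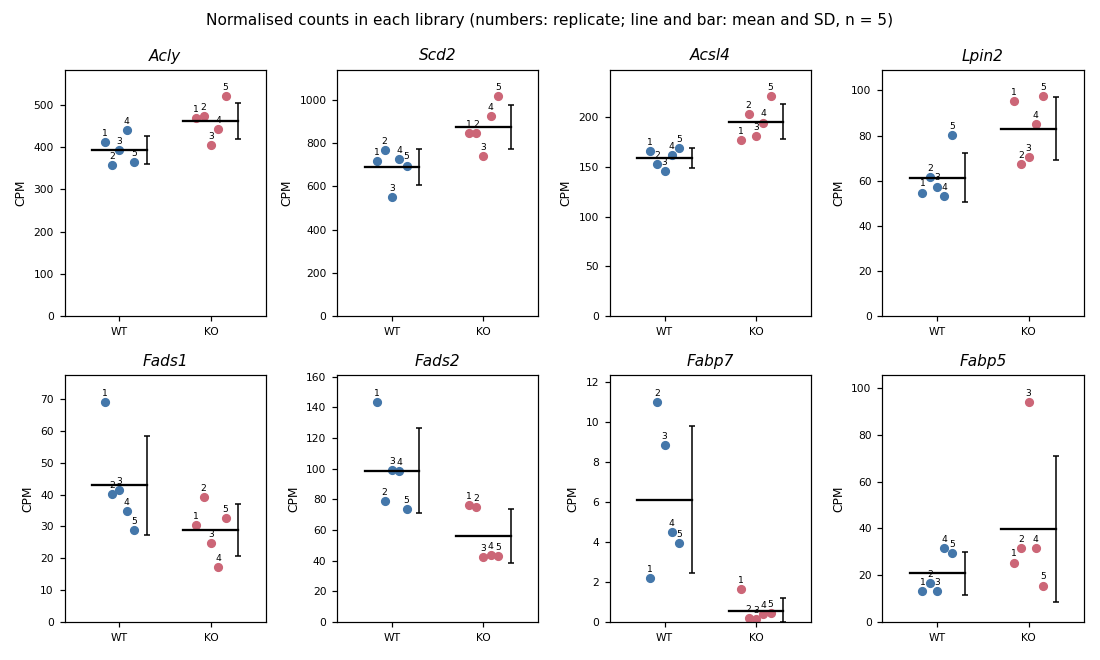
Normalised counts (CPM, y axis from 0) in each library for the 7 genes with an unadjusted p under 0.05 and for Fabp5, by group (x axis), with replicate numbers at the points, the mean as a line and the SD as a bar cut at 0 (n = 5). The groups are apart for Acsl4 and Fabp7, while 1 or more libraries overlap for the other 6.

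Fatty acid binding proteins carry lipids in the cytosol and include the largest differences of the 42 genes. Fabp7, the brain type, known from radial glia and some tumours, stood at 2.20, 11.0, 8.86, 4.50 and 3.93 CPM with Egfr WT PSC and at 1.64, 0.193, 0.116, 0.405 and 0.421 CPM with Egfr KO PSC. Every Egfr KO PSC library lay below every Egfr WT PSC library, and replicate 1 of each group, at 1.64 and 2.20 CPM, came closest. The counts behind these values ran from 5 to 583, so that the low end has wide counting error. The log2 fold change was −3.44 ± 0.68 (SE; 95% confidence interval −4.92 to −1.96), a level 10.9-fold lower in the fit, with an edgeR adjusted p of 0.304 and a DESeq2 adjusted p of 3.39e-05. Without Egfr KO PSC replicate 1 it was −4.42 with an edgeR adjusted p of 0.0441, 1 of 4 genes called lower in that fit (0.0225% of 17739 tested). With the macrophage score as a covariate it was −2.71, and with the endothelial score −4.76. The Schwann cell markers Sox10, Cdh19 and Foxd3 were at or near 0 in both groups. Fabp7-201 held all or nearly all of its counts in every library.

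Fabp5, the epidermal type, was the most abundant of the binding proteins. It stood at 13.2, 16.6, 13.0, 31.7 and 29.5 CPM with Egfr WT PSC and at 25.4, 31.6, 94.3, 31.5 and 15.5 CPM with Egfr KO PSC. Replicate 3 of Egfr KO PSC alone was above all others, and the remaining libraries overlapped. The log2 fold change was 0.93 ± 0.45 (SE) with an edgeR adjusted p of 0.633, 0.33 without that library and 1.62 with the fibroblast score as a covariate. Fabp5 has processed copies in the mouse genome, so its value is uncertain to the extent that reads are shared with them.

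Cd36, a fatty acid receptor of the cell surface, Fabp4, the binding protein of fat and capillaries, and Mgll, the lipase that splits monoglycerides, were low, and the library that was highest for them was also highest for endothelial markers. Egfr KO PSC replicate 3 was highest for each: 2.98 CPM for Cd36, 9.32 CPM for Fabp4 and 4.67 CPM for Mgll. The same library had the highest summed endothelial level, at 66.3 CPM, and was highest for 8 of the 10 markers, with Pecam1 at 14.9 and Esam at 13.7 CPM. That library was also the highest for 18.2% of all genes tested. Replicates 1, 2 and 4 of Egfr KO PSC were low in both, with Cd36 between 0.253 and 0.333 CPM and Pecam1 between 2.55 and 4.25 CPM. Replicate 5 of Egfr KO PSC broke the pattern. Its Cd36, at 2.52 CPM, was above every Egfr WT PSC library, while its summed endothelial level, at 27.5 CPM, was below every one. In replicate 5, Fabp4 at 3.90, Mgll at 1.19 and Pecam1 at 8.13 CPM lay within the Egfr WT PSC range. The ratio of the highest to the lowest library was 11.8 for Cd36, 17.1 for Fabp4 and 7.85 for Mgll. The log2 fold changes of −0.17, −0.12 and −0.19 had intervals that reached beyond −1 and 1, and the part of endothelial RNA in these values was not tested.

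**Figure D3:**
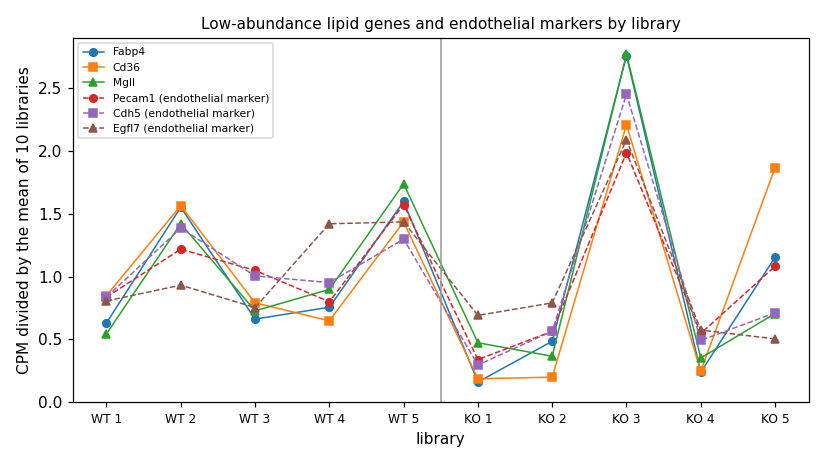
Level of Fabp4, Cd36 and Mgll (solid lines) and of the endothelial markers Pecam1, Cdh5 and Egfl7 (dashed lines) in each library (x axis), as CPM divided by the mean of the 10 libraries (y axis). All 6 genes are highest in Egfr KO PSC replicate 3, and lines join libraries only to guide the eye.

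Of the acyl-CoA synthetases, which activate fatty acids by joining them to coenzyme A, Acsl5 was the most abundant. It stood at 358, 314, 293, 329 and 281 CPM with Egfr WT PSC and at 259.7, 318, 277, 336 and 242 CPM with Egfr KO PSC, with overlap. Its log2 fold change was −0.14 ± 0.11 (SE), with an edgeR adjusted p of 0.789. Acsl4, which prefers arachidonic acid and is known for its part in ferroptosis, stood at 166, 153, 146, 162 and 169 CPM with Egfr WT PSC and at 177, 203, 181, 195 and 221 CPM with Egfr KO PSC. Every Egfr KO PSC library lay above every Egfr WT PSC library, by a small step. The log2 fold change was 0.30 ± 0.09 (SE; 95% confidence interval 0.10 to 0.50), with an edgeR adjusted p of 0.442. Acsl4-203 held 72.7% ± 4.74 and 68.8% ± 1.86 of its counts (SD, n = 5 each), and Acsl4-202 20.3% ± 5.18 and 24.3% ± 2.38. Acsl3, found on droplets, lay between 31.9 and 61.7 CPM and was highest in Egfr KO PSC replicate 3, and Acsl1 lay between 11.8 and 26.1 CPM with a log2 fold change of −0.43 ± 0.23 (SE).

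Triglyceride synthesis had 2 genes higher and 4 lower. Lpin2, a phosphatidate phosphatase, was both the most abundant and the one of lowest p. It stood at 54.7, 61.7, 57.4, 53.1 and 80.1 CPM with Egfr WT PSC and at 95.1, 67.2, 70.3, 85.3 and 97.5 CPM with Egfr KO PSC. Without Egfr WT PSC replicate 5, which lay within the Egfr KO PSC range, the groups would be apart. Over all 10 libraries Lpin2 had a log2 fold change of 0.44 ± 0.15 (SE; 95% confidence interval 0.12 to 0.76), with an edgeR adjusted p of 0.487. The enzymes of the first, second and last steps were at or below 0 on the log2 scale: Gpam, the mitochondrial acyltransferase, at −0.00, Agpat2 at −0.34, and the diacylglycerol acyltransferases Dgat1 and Dgat2 at −0.36 and −0.31. Each of these intervals included 0. Lpin1 lay between 9.56 and 26.1 CPM with a log2 fold change of 0.15.

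The higher values of Scd2, Acsl4 and Lpin2 had an unadjusted p under 0.05 in 20 of 21 alternative fits each. The exception was the fit with the macrophage score as a covariate, which gave log2 fold changes of 0.27, 0.21 and 0.26. Of the 11 markers in that score 8 had a lower mean with Egfr KO PSC, 7 of them at an unadjusted p under 0.05, so score and group are partly confounded. The SE of Fabp7, for example, was 0.68 without the score and 1.07 with it. In that fit 3 of the 42 genes had an unadjusted p under 0.05, beside 3.99% of all genes. With the endothelial score there were 13, while the share of all genes was 15.1%.

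Droplet coat proteins were among the most abundant of the 42 genes. Plin2, which coats droplets in most cells, was at 182 TPM, and in CPM stood at 207, 314, 160.3, 206 and 229 with Egfr WT PSC and at 169, 175, 179.9, 231 and 248 with Egfr KO PSC. Egfr WT PSC replicate 2 was the highest, and the groups overlapped. Plin2 had a log2 fold change of −0.16 ± 0.18 (SE), with an edgeR adjusted p of 0.847, and 0.00 without that library. Plin3, the coat protein that also circulates in the cytosol, was at 207 ± 15.0 and 227 ± 36.6 CPM (SD, n = 5 each). Pnpla2, the first lipase of droplet breakdown, stood at 80.5, 80.2, 69.4, 69.7 and 62.3 CPM and at 94.2, 69.1, 68.4, 70.8 and 98.3 CPM. Replicates 1 and 5 of Egfr KO PSC were above all other libraries and the remaining 3 within the Egfr WT PSC range, with a log2 fold change of 0.15 ± 0.13 (SE) and an edgeR adjusted p of 0.805. Pnpla2-201, annotated as a target of nonsense-mediated decay, held 44.8% ± 3.02 and 45.4% ± 3.62 of its counts (SD, n = 5 each). Lipe, the hormone-sensitive lipase, lay between 16.8 and 22.7 CPM with a log2 fold change of −0.01 and an interval of −0.26 to 0.25.

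**Figure D4:**
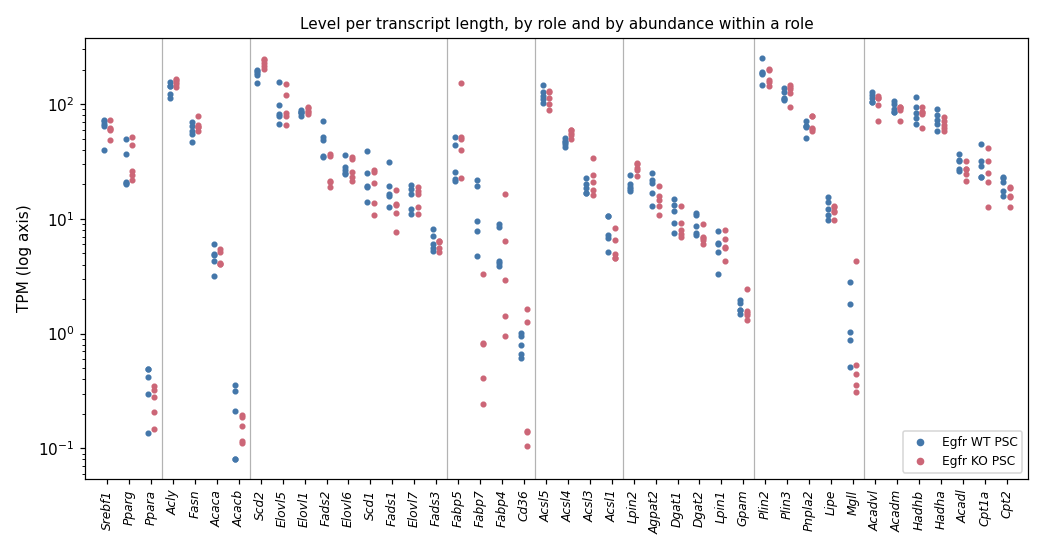
Level of each gene in TPM (log y axis), by role and by abundance within a role (x axis), with 1 point per library, Egfr WT PSC in blue and Egfr KO PSC in red. Scd2 at a mean of 204 TPM is the highest and Acacb at 0.181 TPM the lowest.

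All 7 genes of mitochondrial oxidation were lower with Egfr KO PSC, with log2 fold changes from −0.25 to −0.06 and a median of −0.10, and none had an unadjusted p under 0.05. Egfr KO PSC replicate 3 was the lowest library for 6 of the 7, and Egfr WT PSC replicate 1 the highest for 5. The shared direction thus rests in part on single libraries, and the 7 genes are not separate observations of it. Acadvl, the dehydrogenase of very long chains, was the most abundant. It stood at 170.0, 149.9, 152, 145 and 141 CPM with Egfr WT PSC and at 138, 149, 92.6, 160.3 and 166 CPM with Egfr KO PSC. Egfr KO PSC replicate 3 was far below the other 9. The log2 fold change was −0.10 ± 0.14 (SE), with an edgeR adjusted p of 0.874, and 0.02 without that library. Cpt2, the inner carnitine palmitoyltransferase, stood at 35.7, 29.6, 31.9, 29.0 and 22.5 CPM and at 25.1, 27.2, 19.2, 24.2 and 29.2 CPM, with overlap, a log2 fold change of −0.25 ± 0.15 (SE) and an edgeR adjusted p of 0.688. Cpt1a, the outer carnitine palmitoyltransferase that limits entry, varied most in this role, from 35.1 CPM in Egfr KO PSC replicate 3 to 133 CPM in Egfr KO PSC replicate 5. The medium and long chain dehydrogenases Acadm and Acadl had log2 fold changes of −0.06 and −0.20.

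Hadha and Hadhb, the α and β subunits of the trifunctional protein, had log2 fold changes of −0.08 and −0.06. Their shared upstream stretch, printed above, held 1 GC box. Hadha stood at 150.0, 121, 119, 119.6 and 110.2 CPM with Egfr WT PSC and at 114, 122, 94.9, 125 and 130.4 CPM with Egfr KO PSC. Hadhb stood at 154, 109, 119.7, 112 and 95.5 CPM and at 118, 109, 84.6, 116 and 139 CPM. Both peaked in Egfr WT PSC replicate 1 and were lowest in Egfr KO PSC replicate 3. The most abundant transcript of Hadha, Hadha-201, is annotated without a coding sequence and held 68.4% ± 1.61 and 68.9% ± 2.99 of the counts (SD, n = 5 each).

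Much of the variation was between single libraries. Egfr KO PSC replicate 3 was the lowest library for 14 of the 42 genes, among them 6 of the 7 oxidation genes, while it was the lowest for 18.7% of all genes tested. Egfr WT PSC replicate 1 was the highest for 14 of the 42, among them 5 of 7 oxidation genes and 5 of 9 desaturases and elongases, beside 11.6% of all genes. Egfr KO PSC replicate 5 was the highest for 13, beside 14.2% of all genes. The ratio of the highest to the lowest library was under 2 for 25 genes and over 5 for 5, namely Cd36, Fabp4, Fabp5, Fabp7 and Mgll.

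**Figure D5:**
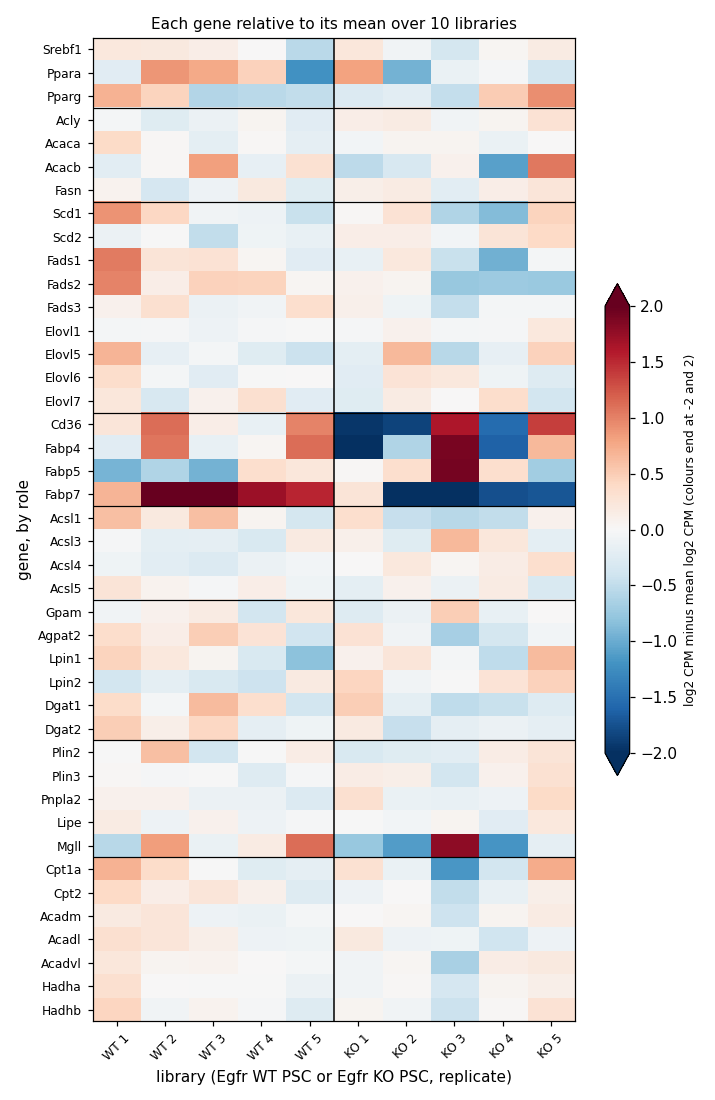
Log2 CPM of each of the 42 genes (rows, by role) in each library (columns), minus the mean of that gene over the 10 libraries. Fabp7 is above its mean in every Egfr WT PSC library and slightly in Egfr KO PSC replicate 1, and below it in the other Egfr KO PSC libraries. Egfr KO PSC replicate 3 is blue over the oxidation genes and red for Cd36, Fabp4, Fabp5 and Mgll.

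A further 103 genes of the same pathways were listed, and 93 of them were tested. Of these 36 were higher and 57 lower with Egfr KO PSC, none passed the edgeR test at an adjusted p under 0.05, and 14 had an unadjusted p under 0.05, 4 higher and 10 lower, beside 3.55% and 4.60% of all genes. DESeq2 called 127 of 17458 genes in both directions together, 85 of them (0.487% of all genes) lower. Among the 8 named here it called Acsl6 higher and Acss1 lower, and its calls for the rest of the 93 are not given. These 8 were picked for the lowest edgeR p of the 93. Acsl6, an acyl-CoA synthetase, was at 9.22 ± 3.38 and 23.3 ± 11.6 CPM (SD, n = 5 each), a log2 fold change of 1.34 ± 0.34 (SE), and Acsbg1, the bubblegum synthetase, at 179.8 ± 76.7 and 314 ± 124 CPM, 0.81 ± 0.30 (SE). Acss1 and Acss2 make acetyl-CoA from acetate. Acss1, the mitochondrial form, was at 6.83 ± 2.82 and 2.28 ± 1.52 CPM, −1.58 ± 0.42 (SE), and Acss2, the form of cytosol and nucleus, at 11.3 ± 4.78 and 5.58 ± 2.97 CPM, −1.01 ± 0.38 (SE). Nr1h3, the liver X receptor that induces Srebf1, had a log2 fold change of −0.78 ± 0.24 (SE), and Mogat2, a monoacylglycerol acyltransferase, −0.71 ± 0.26 (SE). The peroxisomal thiolase Acaa1a and Acad9, an acyl-CoA dehydrogenase that also helps to assemble complex I, had log2 fold changes of −0.48 ± 0.14 (SE) and −0.40 ± 0.16 (SE). The edgeR adjusted p of these 8 lay between 0.396 and 0.547. By role, oxidation had 8 higher and 22 lower of 30, and triglyceride and sterol ester synthesis 7 higher and 3 lower of 10.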

How the data were processed

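RNA-seq was analysed in 10 libraries, 5 with Egfr WT PSC and 5 with Egfr KO PSC. Groups came from the PSC line in the labels, and replicate numbers follow the order of deposition and pair no libraries. The numbers that open the sample titles run lower in all Egfr WT PSC libraries than in all Egfr KO PSC libraries, so what they stand for cannot be told apart from the group. The labels' protocols give a low-input kit with PCR cycles set by RNA input, without molecular identifiers, so counting error is a lower limit of the true error.

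The authors deposited, for each library, estimated counts (expected counts, not normalised), TPM and effective length of 147828 transcripts, made with Salmon 1.9.0 on GRCm39 per the submitters' processing notes. The annotation release and other settings were not stated. TPM deposited by the authors are scaled per transcript length. Transcripts were assigned to genes by identifier with GENCODE M21 of GRCm38, used for names only: 137063 (92.7%) had a gene and held 98.1–98.7% of the counts. The other 10765 transcripts were left out. The sum of estimated counts over each gene was rounded to a whole number. No pair of libraries agreed within sampling noise (lowest chi-square per degree of freedom 38.9).

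The groups were compared with the edgeR 4.0.16 quasi-likelihood F test in R 4.3.3, with TMM normalisation, a minimum count of 10, no covariate and Benjamini-Hochberg adjustment over 17495 genes at 0.05. SE is the fold change over the root of F, and 95% confidence intervals use the total degrees of freedom of the fit, residual plus prior. The fits were tested on simulated counts. DESeq2 1.42.0, limma 3.58.1 (voom, and log2 of TPM plus a pseudocount of 1), other scalings, no filter, an effective-length offset, covariates and leaving out each library were alternatives, 21 in all. Marker scores are mean log2 CPM with a prior count of 2. Correlations used 100000 permutations, two-sided. Values in every library are given for genes with an unadjusted p under 0.05, with groups apart, or of lowest p or highest TPM in a role. From the other pathway genes the 8 of lowest p are named, and from each marker list the 2 most abundant, except that 1 Schwann cell marker is not reported here. Values by library given for Hadha, Hadhb, Cd36, Fabp4 and Mgll were added after the data were seen. The 42 genes and all lists were chosen with earlier results of these data known.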

Additional observations from a re-analysis of the deposited data

Results flagged for a closer look

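Each of the 42 genes was examined in each group of 5 libraries, 84 groups in all, for a library whose gap to its nearest neighbour exceeded 0.71 of the range of the group. There were 8 such values, some of them in the same library, and chance gives about 1 in 20 groups. The 84 groups share the same libraries and are not independent, so that rate is only a rough guide. The value far from the rest was high in Egfr WT PSC replicate 1 for Elovl5 (284 CPM, the others 131–172) and Hadha (150.0 CPM, the others 110.2–121). It was low in Egfr WT PSC replicate 3 for Elovl1 (74.1 CPM, the others 77.6–78.7) and in Egfr WT PSC replicate 4 for Plin3 (181 CPM, the others 211–218). Egfr KO PSC replicate 1 was high for Fabp7 (1.64 CPM, the others 0.116–0.421) and Dgat1 (11.1 CPM, the others 5.53–6.91). Egfr KO PSC replicate 3 was high for Fabp5 (94.3 CPM, the others 15.5–31.6) and Mgll (4.67 CPM, the others 0.595–1.19). The causes were not tested.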

How the results depend on the processing

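No gene passed an adjusted p of 0.05 in edgeR, while 127 did in DESeq2, 3 in limma voom, 2 in limma on log2(TPM + 1), 1 without the expression filter and 3 with the endothelial score as a covariate, and between 0 and 4 when 1 library was left out. Of the 42 genes, 1 passed in DESeq2 (Fabp7) and 0 to 1 when 1 library was left out (Fabp7, without Egfr KO PSC replicate 1). The 7 genes with an unadjusted p under 0.05 became 3 with the macrophage score and 13 with the endothelial score, a covariate chosen after seeing the data, and 5 to 10 when 1 library was left out. The median log2 fold change of the 42 genes lay between −0.14 and −0.01 over the 21 alternatives. Signs turned for values near 0: Srebf1 was at 0.013 with upper quartile scaling and −0.12 to 0.078 when 1 library was left out, Ppara at 0.17 with the macrophage score, Plin2 at −0.25 to 0.0025 and Acadvl at −0.16 to 0.024 when 1 library was left out. On log2(TPM + 1) the correlation of Fasn was −0.22 with Acaca, −0.64 with Scd1, 0.22 with Elovl6, −0.58 with Srebf1 and 0.32 with Acly, and that with Elovl6 ran from −0.27 to 0.072 when 1 library was left out. Of the 15 genes described with fold changes and the 8 further pathway genes, none but Fabp7, Acsl6 and Acss1 passed an adjusted p of 0.05 in any of the 21 alternatives. The causes were not tested. Depth limits Fabp7, Ppara and Acacb, which had 5, 9 and 10 counts in their lowest libraries. No paired analysis was possible because replicate numbers come from accession order and nothing in the labels links libraries across groups. A number in the deposited file names (8, 9 or 10) recurs in both groups in unequal numbers of libraries and its meaning was not stated. As a covariate it left 0 genes past an adjusted p of 0.05, with Fabp7 at −3.49 and Fads2 at −0.82, and Acly lost its unadjusted p under 0.05.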
